A study of Mus musculus with 91 samples.

Results

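The 5 mature miRNAs described here, mmu-miR-9-5p, mmu-miR-9-3p, mmu-miR-124-3p, mmu-miR-219a-2-3p and mmu-miR-219a-5p, were taken by name from the 1504 mature miRNAs of the main small RNA count table. All 5 were in that table and in a second table of 895 miRNAs. They were chosen by measured values, namely the lower counts of mmu-miR-219a-2-3p in E7.5 epiblast without DNA methyltransferases than in control E7.5 epiblast. That contrast is therefore given as a description, with no test.

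The miR-9, miR-124 and miR-219 families are known from the nervous system. miR-124 marks neurons, where it represses non-neuronal transcripts, miR-9 is carried by neural progenitors and neurons, and miR-219 is best known for the differentiation of oligodendrocytes. A precursor hairpin can give a mature strand from each arm, named 5p and 3p, and bases 2 to 8 of a mature strand, the seed, set most of its target choice. At the stages sampled here the epiblast, which forms the embryo proper, is passing through gastrulation, whereas the extraembryonic ectoderm gives rise to placental tissue.

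The mature sequences are shown because the counts of the members could not be told apart from those of miRNAs on the opposite strand. They are from RefSeq (GRCm38.p6), with the seed in capitals.
mmu-miR-9-5p: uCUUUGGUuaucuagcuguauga
mmu-miR-9b-3p: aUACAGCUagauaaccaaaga
mmu-miR-9-3p: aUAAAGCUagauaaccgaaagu
mmu-miR-9b-5p: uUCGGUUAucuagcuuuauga
mmu-miR-219a-5p: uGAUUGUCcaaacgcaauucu
mmu-miR-219c-3p: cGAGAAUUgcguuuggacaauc
mmu-miR-219b-5p: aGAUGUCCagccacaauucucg
The reverse complement of mmu-miR-9b-3p shares 21 bases in a row with mmu-miR-9-5p, that of mmu-miR-9b-5p shares 19 with mmu-miR-9-3p, and that of mmu-miR-219c-3p shares 20 with mmu-miR-219a-5p. In the count table mmu-miR-9-5p and mmu-miR-9b-3p had equal counts in 88 of 88 libraries, as did mmu-miR-9-3p and mmu-miR-9b-5p, mmu-miR-219a-2-3p and mmu-miR-219b-5p, and mmu-miR-219a-5p and mmu-miR-219c-3p. Of 33 pairs of mature miRNAs that overlap by at least 15 bases on opposite strands, 19 had equal counts in every library. The pair of mmu-miR-219a-2-3p and mmu-miR-219b-5p is not among the 33, because the sequences used hold no entry for mmu-miR-219a-2-3p. Each value of the miR-9 and miR-219 members is thus the value of a pair, although the seeds of the partners differ. The sequences used hold no entry for mmu-miR-124-3p, so the search by position could not find a partner for it.

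The members come from several genes. mmu-miR-9-5p is encoded on the plus strand at chr3:88215613-88215635 (Mir9-1), chr7:79505279-79505301 (Mir9-3) and chr13:83738821-83738843 (Mir9-2), each within a long noncoding RNA gene (Gm3764, Mir9-3hg and C130071C03Rik). mmu-miR-219a-5p is encoded on the minus strand at chr2:29845689-29845709 (Mir219a-2) and chr17:34025052-34025072 (Mir219a-1). The gene Mir219a-2, chr2:29845631-29845727, lies within the span of the protein-coding gene Cercam, and the antisense gene Mir219b, chr2:29845647-29845711, lies within Mir219a-2. The miR-124 genes Mir124a-1 (chr14:64590657-64590741), Mir124a-2 (chr3:17795662-17795770) and Mir124a-3 (chr2:180894040-180894107) give 1 mature sequence, so the counts do not say which gene was active.

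Small RNAs were counted in 91 mouse libraries, of which 62 were from dissected embryos. Zygotes of Oct4-EGFP males on a C57BL/6 background and B6D2F1 (C57BL/6J by DBA2) females were injected with base editor mRNA and guides that write stop codons into Dnmt1 (Dnmt1-KO), into Dnmt3a and Dnmt3b (Dnmt3a/3b-DKO) or into all 3 genes (Dnmt-null), and the extraembryonic ectoderm (Exe) and epiblast (Epi) of these and of control embryos were separated with needles at E6.5 and E7.5. Each of the 16 groups had 4 libraries, except E7.5 Epi control and E7.5 Epi Dnmt-null, which had 3. A further 18 libraries were from semi-cloned (SC) embryos, made by injecting oocytes with androgenetic haploid embryonic stem cells (AG-haESCs), and 8 were from AG-haESCs themselves. At E6.5 the SC embryos were WT, Dnmt-null, DKO (made from AG-haESCs without the H19 and IG differentially methylated regions) and DKO;Dnmt-null. At E7.5 they were control, made from DKO-AG-haESCs and so not wild type, and Mir-6KO;Dnmt-null, where Mir-6KO stands for the deletion of 6 miRNAs in DKO-AG-haESCs. Both E7.5 groups thus lack the H19 and IG regions on the paternal copy only, since the AG-haESCs replace the sperm. The paper likewise calls the miRNA deletions in these embryos heterozygous. The AG-haESCs were WT, O48 and Mir-6KO. By the methods, plasmids for the miRNA deletions were put into O48, and edited lines were then grown from single cells. The paper says these deletions were made in DKO-AG-haESCs, but the labels do not give the genotype of O48. The AG-haESCs were C57BL/6, and the embryos, SC embryos included, are labelled C57BL/6 male by F1 female. Another 3 AG-haESC libraries, of a line whose genotype the labels do not give, were put in no group. Editing in zygotes gives embryos that can differ from one another, and the labels do not say whether replicates came from separate embryos, so p-values measure the spread between these libraries only.

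The depth set how far the members could be measured. Total counts ran from 45242 to 2394918 in the dissected libraries, from 154061 to 26970637 in SC embryos and from 3813865 to 16501907 in AG-haESCs. Levels are given as CPM, counts per 1000000 counts of the library, in which 1 count is worth 22.1 CPM in the shallowest library. The summed level of the epiblast markers miR-302a, miR-302b, miR-302c, miR-302d and miR-367 (3p arms) was 48473 to 212606 CPM in the 30 Epi libraries and 5617 to 45944 CPM in the 32 Exe libraries. Markers of the trophoblast, from the Sfmbt2 cluster, summed to 622 to 26338 CPM in Epi and 30010 to 69214 CPM in Exe, so the dissected tissues carried their labels with some mixing. A few other libraries stood apart. The epiblast markers summed to 239331 and 268002 CPM in the 2 libraries labelled AG-haESC Mir-6KO, against 924 to 3914 CPM in the WT and O48 AG-haESCs, so these 2 libraries went against their label. In SC E6.5 WT replicate 3 they summed to 21252 CPM, against 195381 and 214514 CPM in the other replicates.

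mmu-miR-219a-2-3p was found in the E7.5 epiblast of control embryos, was lower in Dnmt1-KO and in the double mutant, and was at 0 in Dnmt-null embryos. The E7.5 Epi controls had 528, 407 and 292 counts, or 227, 217 and 180 CPM. The Dnmt3a/3b-DKO libraries had 45.3, 31.1, 72.0 and 117 CPM, and the Dnmt1-KO libraries had 0, 46.4, 69.9 and 47.4 CPM. All 3 Dnmt-null libraries had 0 counts. Every control library was above every mutant library, and the libraries of the Dnmt1-KO and Dnmt3a/3b-DKO embryos overlapped.

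By group, the mean in E7.5 Epi was 208 ± 24.8 CPM (SD, n = 3) in controls, 66.4 ± 37.8 CPM (SD, n = 4) in Dnmt3a/3b-DKO and 40.9 ± 29.4 CPM (SD, n = 4) in Dnmt1-KO. Over summed counts, the level in Dnmt3a/3b-DKO was 0.335 times that of controls (95% exact interval 0.297 to 0.378) and in Dnmt1-KO 0.203 times (0.173 to 0.238). These intervals cover counting error only, since reads amplified by PCR without molecular identifiers are not independent molecules. In Dnmt-null it was at least 73.1-fold lower than in controls, with the floor set at 3 counts over the 3 libraries. At the control level the Dnmt-null libraries would have held 57.5, 103 and 59.0 counts at their depths. The order from control to Dnmt3a/3b-DKO to Dnmt1-KO to Dnmt-null is a description, since these libraries chose the member.

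Only the contrast of the neighbours Dnmt3a/3b-DKO and Dnmt1-KO leaves out the libraries that chose mmu-miR-219a-2-3p, and their difference did not pass. The fit behind it held all genotypes, so those libraries still entered its filter, its normalization and its estimate of the spread. The log2 fold change of Dnmt1-KO against Dnmt3a/3b-DKO was -0.80 with a standard error of 0.76 (adjusted p = 0.633, edgeR), an interval of 2 standard errors from -2.33 to 0.73. In bulk samples, fewer cells of a type and less RNA per cell cannot be told apart. Marker lists of other cell types also differed between the E7.5 Epi groups, mostly in Dnmt-null. The mesenchyme markers miR-199a-3p, miR-214-3p, miR-143-3p and miR-145a-5p summed to between 267 and 566 CPM in Dnmt3a/3b-DKO, 232 and 396 CPM in controls, 104 and 352 CPM in Dnmt1-KO, and 7.33 and 61.5 CPM in Dnmt-null, with miR-214-3p at 0 in all of these groups but Dnmt1-KO. In Dnmt3a/3b-DKO the mesenchyme and epiblast markers overlapped those of controls, while the trophoblast, endoderm and blood markers lay above them. The epiblast markers summed to 202279 to 212606 CPM in controls, 193251 to 203244 CPM in Dnmt3a/3b-DKO, 135939 to 200375 CPM in Dnmt1-KO and 105333 to 164935 CPM in Dnmt-null. The trophoblast markers summed to 1952 to 2263 CPM in controls, 2716 to 5587 CPM in Dnmt3a/3b-DKO, 2887 to 3212 CPM in Dnmt1-KO and 4127 to 8426 CPM in Dnmt-null. The 4 endoderm markers summed to 3459 to 4174 CPM in controls, 4581 to 5719 CPM in Dnmt3a/3b-DKO, 3667 to 4660 CPM in Dnmt1-KO and 2334 to 3042 CPM in Dnmt-null. The 4 blood markers, of which miR-223-3p was at 0 in every one of these groups, summed to at most 10.6, 159, 38.3 and 25.7 CPM in the same order. The part of these cell types in the fall of mmu-miR-219a-2-3p was not tested.

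**Figure D1:**
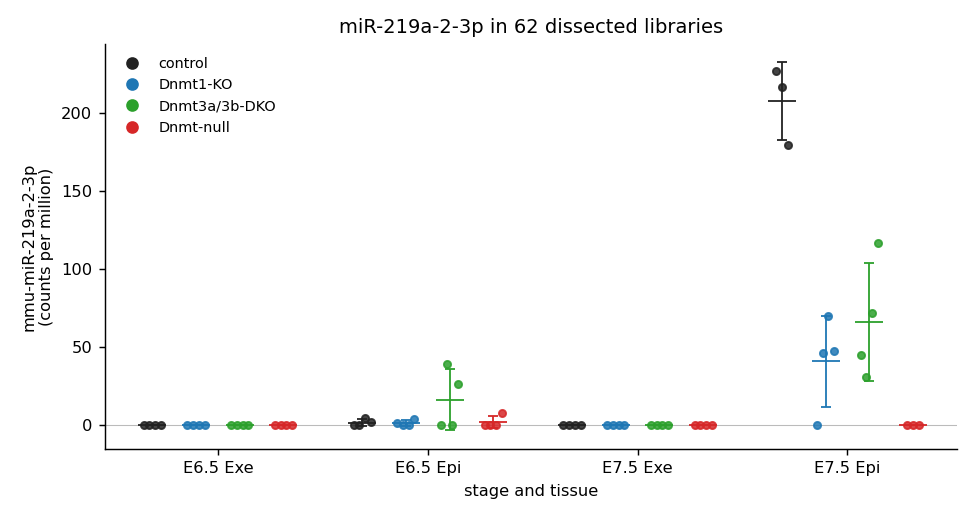
Level of mmu-miR-219a-2-3p in CPM (vertical axis) by stage and tissue (horizontal axis), with 1 point per library, colour for genotype, and bars for the mean ± SD. The 3 E7.5 Epi controls lie between 180 and 227 CPM, the 3 E7.5 Epi Dnmt-null libraries are at 0, and all 32 Exe libraries are at 0.

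In the dissected embryos mmu-miR-219a-2-3p was counted in Epi only, and mostly at E7.5. No count was found in any of the 32 Exe libraries, which hold 19724329 counts in all and so allow a level of up to 0.152 CPM for 3 counts. In controls at E7.5 the Epi level was at least 282-fold higher than in Exe, with the floor set at 3 counts over the 4 Exe controls. At E6.5 the Epi controls had 0, 0, 2 and 1 counts, so the summed level at E7.5 was 103 times that at E6.5 (95% exact interval 35.3 to 502). Among the E6.5 Epi mutants only Dnmt3a/3b-DKO held more than 2 counts in any library, with 0, 7, 0 and 5. These comparisons involve the E7.5 Epi controls or groups at the floor and were not tested.

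mmu-miR-219a-5p, the canonical guide strand that both Mir219a genes can give, was found in 10 of 30 Epi libraries and in 3 of 32 Exe libraries. In E7.5 Epi it was at 3.87, 0 and 17.9 CPM in controls and 14.7, 4.10 and 0 CPM in Dnmt-null. Only 1 of 4 libraries held it in each of the other mutants, at 5.41 CPM in Dnmt3a/3b-DKO and 12.1 CPM in Dnmt1-KO. All 4 groups overlapped and each contained a library at 0. Dnmt1-KO against Dnmt3a/3b-DKO gave a log2 fold change of 0.96 with a standard error of 2.0 (adjusted p = 0.853, edgeR).

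mmu-miR-219a-1-3p, the 3p strand of the paralog Mir219a-1 on chromosome 17, was present where mmu-miR-219a-2-3p was at 0. It had 9, 15 and 18 counts in the E7.5 Epi Dnmt-null libraries (42.7 ± 18.7 CPM, SD, n = 3) and 83, 168 and 151 counts in controls (72.7 ± 32.1 CPM, SD, n = 3). Its counts equalled those of mmu-miR-219c-5p, on the opposite strand, in 85 of 88 libraries. In Exe controls at E7.5 it averaged 11.3 ± 5.61 CPM (SD, n = 4). In Exe, then, the strand of Mir219a-2 was at 0 in every library and that of Mir219a-1 was not.

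mmu-miR-9-5p and mmu-miR-9-3p were low and lay mostly in the epiblast. A count of mmu-miR-9-5p was found in 29 of 30 Epi libraries, at a median of 39.8 CPM, and in 16 of 32 Exe libraries, at a median of 1.2 CPM. mmu-miR-9-3p was found in 28 of 30 Epi and 12 of 32 Exe libraries, at medians of 27.6 and 0 CPM. The labels do not say which Epi and Exe libraries came from the same embryos.

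In control embryos the miR-9-5p level was 25.8, 45.2 and 35.7 CPM in E7.5 Epi and 0, 16.3, 0 and 4.0 CPM in E7.5 Exe. The groups did not overlap. The log2 fold change of Epi against Exe was 2.85 with a standard error of 1.32 (adjusted p = 0.111, edgeR), past the thresholds of the study, which are an absolute log2 fold change over 0.5 and an unadjusted p under 0.05, but not after adjustment. Of the 558 miRNAs tested in that comparison, 40.5% passed the same thresholds. mmu-miR-9-5p could pass the filter on low counts through Epi alone, where it is high, so this comparison is a description. The unadjusted p rose over 0.05 when any library but E7.5 Exe control replicate 2 was left out, with log2 values of 2.61 to 3.07, and without that replicate the value was 5.02 (adjusted p = 0.0201, edgeR). At E6.5 the controls held 65 counts in Epi and 3 in Exe, a ratio of levels of 8.28 (95% exact interval 2.71 to 41.2), given without a test. Between the stages, mmu-miR-9-5p in Epi controls differed by a log2 value of -0.17 with a standard error of 1.26 (adjusted p = 0.953, edgeR), where 35.3% of miRNAs passed.

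Among genotypes, mmu-miR-9-5p was lower in Dnmt1-KO than in Dnmt3a/3b-DKO epiblast at E7.5. The levels were 27.9, 13.8, 16.7 and 49.8 CPM in Dnmt1-KO and 66.9, 68.7, 42.4 and 65.6 CPM in Dnmt3a/3b-DKO. All but 1 of the Dnmt1-KO libraries were below all of the Dnmt3a/3b-DKO libraries. The log2 fold change was -1.27 with a standard error of 0.54 (adjusted p = 0.164, edgeR), where the median of all 652 miRNAs was -0.21 and 16.6% passed. The call was lost without Dnmt3a/3b-DKO replicate 1, 2 or 4 or without Dnmt1-KO replicate 2 or 3, and the log2 value stayed between -1.72 and -1.05 over all 8 fits that left out 1 of these libraries. The E7.5 Epi controls, at 35.6 ± 9.72 CPM (SD, n = 3), lay between. Against them neither Dnmt1-KO (log2 -0.58, SE 0.57, adjusted p = 0.571, edgeR) nor Dnmt3a/3b-DKO (log2 0.69, SE 0.57, adjusted p = 0.622, edgeR) passed. The E7.5 Epi Dnmt-null libraries, described without a test, held 40.3, 28.6 and 18.4 CPM and overlapped the controls.

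The 3p arm varied more. mmu-miR-9-3p was at 79.1, 36.2 and 14.8 CPM in E7.5 Epi controls, at 45.4, 6.27, 22.5 and 57.9 CPM in Dnmt1-KO, at 43.1, 65.4, 43.1 and 108 CPM in Dnmt3a/3b-DKO, and at 47.6, 14.3 and 90.1 CPM in Dnmt-null. All 4 groups overlapped. Dnmt1-KO against Dnmt3a/3b-DKO gave a log2 fold change of -1.07 with a standard error of 0.69 (adjusted p = 0.421, edgeR), in the same direction as the 5p arm but short of the threshold. Against controls the values were 0.49 for Dnmt3a/3b-DKO (SE 0.74, adjusted p = 0.833, edgeR) and -0.58 for Dnmt1-KO (SE 0.73, adjusted p = 0.673, edgeR).

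**Figure D2:**
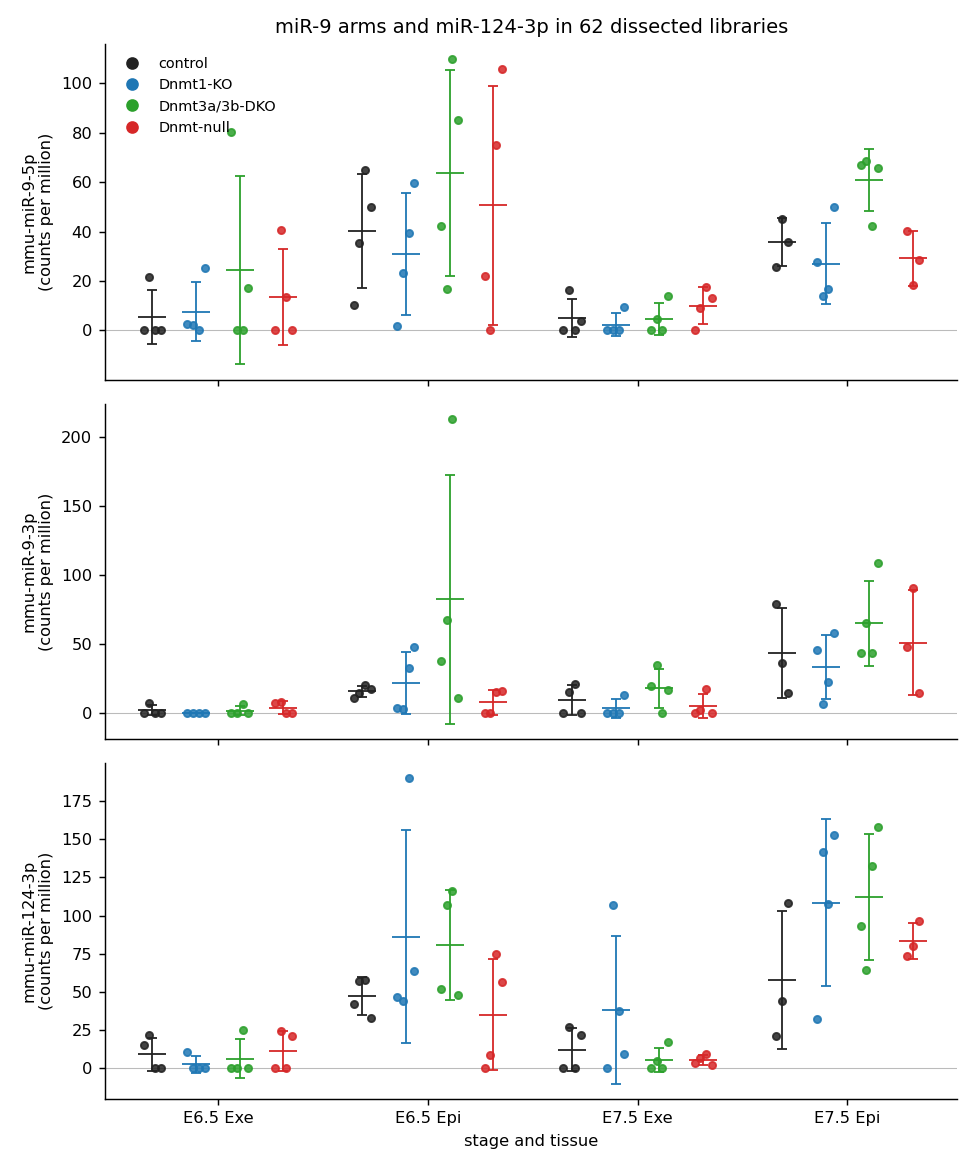
Levels of mmu-miR-9-5p, mmu-miR-9-3p and mmu-miR-124-3p in CPM (vertical axes) by stage and tissue (horizontal axis), with 1 point per library, colour for genotype, and bars for the mean ± SD (lower ends may pass below 0). Most Exe libraries lie near 0, the Epi libraries lie higher with wide spread, and the E7.5 Epi Dnmt3a/3b-DKO libraries of mmu-miR-9-5p lie between 42.4 and 68.7 CPM.

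The balance of the miR-9 arms was not constant. Of the summed counts of both arms, mmu-miR-9-5p took 86.9% in WT AG-haESCs (95% exact interval 84.6 to 88.9) and 88.2% in O48 AG-haESCs (85.4 to 90.7), with 84.6% to 93.5% in each of the 6 libraries. In E7.5 Epi controls it took 42.4% (37.9 to 46.9), with 24.6% to 70.7% by library, and in E7.5 Epi Dnmt3a/3b-DKO 47.0% (43.1 to 50.9). The share was higher in E6.5 Epi controls, at 73% (62.6 to 81.9), with 50% to 76.3% by library. Among the E6.5 Epi mutants it ran from 45% in Dnmt3a/3b-DKO to 86.4% in Dnmt-null. In SC embryos at E7.5 it took 73.3% in controls (54.3% to 90.4% by library) and 92.9% in Mir-6KO;Dnmt-null, where 1 library held neither arm and the others gave 88.5% and 100%. The 1 library labelled AG-haESC Mir-6KO with counts of either arm gave 36.0% (31.6 to 40.5). All 6 WT and O48 AG-haESC libraries had a higher 5p share than any of the 3 E7.5 Epi control libraries. This comparison was not tested, and the counts of both arms include their opposite-strand partners.

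**Figure D3:**
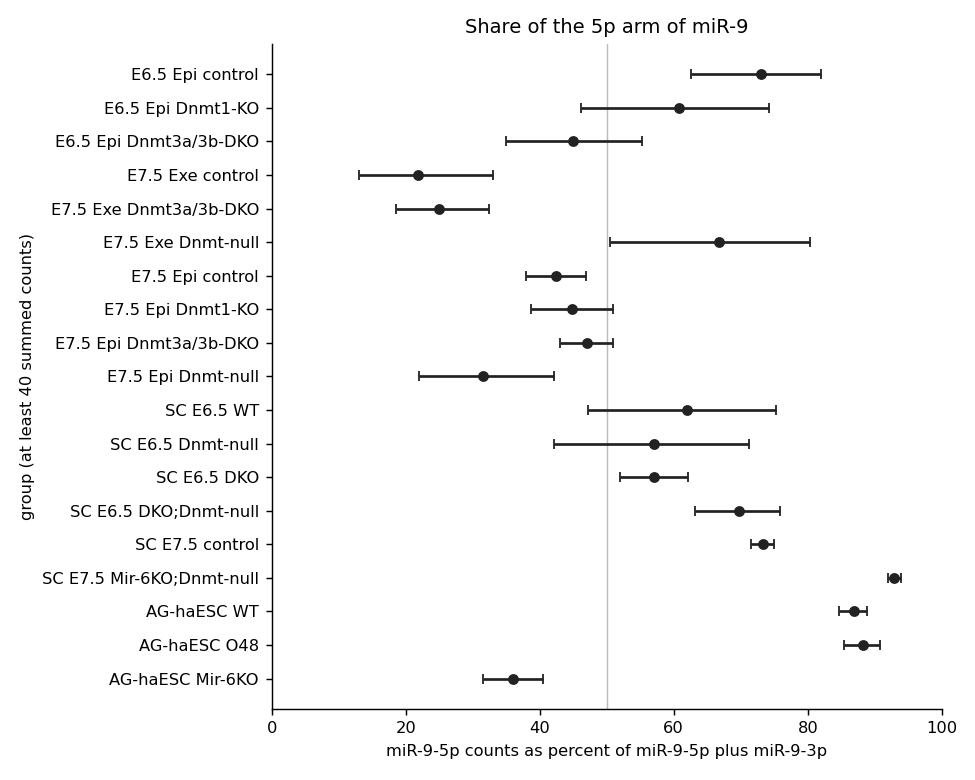
Share of mmu-miR-9-5p among the summed counts of mmu-miR-9-5p and mmu-miR-9-3p, in percent (horizontal axis), in the 19 groups with at least 40 such counts (vertical axis). Points are the shares of the summed counts and bars their 95% exact binomial intervals, which cover counting error only. The WT and O48 AG-haESCs lie at 86.9% and 88.2%, and the E7.5 Epi groups lie below 50%.

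mmu-miR-124-3p was also higher in most epiblast libraries, and its mean in E7.5 Epi was not lower in any mutant than in controls. It was found in 29 of 30 Epi libraries, at a median of 64.2 CPM, and in 17 of 32 Exe libraries, at a median of 3.07 CPM. In controls it was at 41.9, 56.9, 58.1 and 32.7 CPM in E6.5 Epi and at 15.2, 21.6, 0 and 0 CPM in E6.5 Exe, groups that did not overlap. At E7.5 the Exe controls were at 0, 26.8, 0 and 22.0 CPM and overlapped the Epi controls, of which the lowest was at 21.5 CPM. The log2 fold change of Epi against Exe was 2.64 at E6.5 (SE 1.44, adjusted p = 0.165, edgeR) and 2.34 at E7.5 (SE 1.26, adjusted p = 0.174, edgeR), so neither passed, where 39.6% and 40.5% of miRNAs did. Without E7.5 Exe control replicate 2 the E7.5 value was 3.13 and passed. mmu-miR-124-3p could also pass the filter through Epi alone, so these comparisons of Epi with Exe are a description. The stages did not pass either, with log2 values of E7.5 against E6.5 of 0.33 in Epi (SE 1.23, adjusted p = 0.898, edgeR) and 0.63 in Exe (SE 1.46, adjusted p = 0.891, edgeR). In Exe, 25.3% of miRNAs passed between the stages.

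In E7.5 Epi, mmu-miR-124-3p was at 21.5, 44.2 and 108 CPM in controls, at 32.0, 142, 107 and 153 CPM in Dnmt1-KO, at 92.9, 64.6, 133 and 158 CPM in Dnmt3a/3b-DKO, and at 73.3, 96.4 and 79.9 CPM in Dnmt-null. The controls had the lowest mean, 58.0 ± 45.1 CPM (SD, n = 3), and overlapped all 3 mutants. The log2 fold changes against controls were 0.85 for Dnmt3a/3b-DKO (SE 0.56, adjusted p = 0.462, edgeR) and 0.70 for Dnmt1-KO (SE 0.56, adjusted p = 0.468, edgeR). Both depend on control replicate 3, the library at 108 CPM, without which the values were 1.71 and 1.55 and passed the thresholds (adjusted p = 0.172 and adjusted p = 0.128, edgeR). Dnmt1-KO and Dnmt3a/3b-DKO differed by a log2 value of -0.15 (SE 0.51, adjusted p = 0.912, edgeR), an interval of 2 standard errors from -1.18 to 0.87. The other arm, mmu-miR-124-5p, had 24, 14, 60 and 44 counts in Dnmt3a/3b-DKO, 37, 5, 7 and 11 in Dnmt1-KO, 13, 0 and 13 in controls and 0, 3 and 0 in Dnmt-null.

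Over all comparisons 3 of 56 tests of a member passed the thresholds and none had an adjusted p under 0.05, the lowest being 0.111 by edgeR. The 56 include the comparisons of Epi with Exe in controls, which are descriptions because the filter could be passed through Epi alone. Over the dissected tissues, 1 of 26 tests of a member between genotypes passed the thresholds, namely mmu-miR-9-5p in Dnmt1-KO against Dnmt3a/3b-DKO. In E6.5 Exe none of the members passed the filter on low counts, where 8.78% of the miRNAs tested passed the thresholds for Dnmt1-KO, 9.04% for Dnmt3a/3b-DKO and 13.0% for Dnmt-null. The percentages below follow the same order. In E6.5 Epi mmu-miR-9-5p and mmu-miR-124-3p could be tested and did not pass in any genotype, where 12.0%, 14.9% and 25.9% of miRNAs did. In E7.5 Exe the miR-9 arms and mmu-miR-124-3p did not pass, where 16.8%, 8.21% and 19.4% did. In E7.5 Epi 3 members could be tested against controls and did not pass, where 25.0% and 17.8% did. In the contrast that chose the members, E7.5 Epi Dnmt-null against control, 40.5% of miRNAs passed. The genotype effect in Epi minus that in Exe was tested in 9 cases and did not pass in any, with standard errors up to 2.0 and adjusted p of 0.760 or more by edgeR. In those tests 11.4%, 18.1% and 18.1% of miRNAs passed at E6.5 and 10.6% and 9.27% at E7.5.

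Of 18 other miRNAs known from neural tissue, 9 passed the filter in control embryos, and those with at most 3 counts in a group are described without a test. Between Epi and Exe, 3 of 4 tested passed at E6.5 and 3 of 8 at E7.5, where 39.6% and 40.5% of all miRNAs did. A list member that is high in Epi alone could pass the filter through Epi alone, so these counts are a description. miR-92b-3p, of the broadly expressed miR-92 family, was higher in Epi at both stages, at 24083 ± 2753 CPM (SD, n = 3) in E7.5 Epi against 3953 ± 434 CPM (SD, n = 4) in Exe. miR-128-3p was higher in Epi at E6.5 (345 ± 104 against 129 ± 84.0 CPM, SD, n = 4), and miR-488-3p at E7.5 (97.5 ± 20.6 CPM, SD, n = 3, against 4.47 ± 8.94 CPM, SD, n = 4). miR-138-5p at E6.5 and miR-7a-5p at E7.5 were higher in Exe. miR-135a-5p, not tested, was at 43.9 ± 9.12 CPM (SD, n = 4) in E6.5 Epi and 35.7 ± 8.52 CPM (SD, n = 3) in E7.5 Epi and had no count in the Exe controls of both stages. From E6.5 to E7.5 in Epi, 3 of 9 passed, beside 35.3% of all miRNAs. There miR-92b-3p rose, and miR-128-3p and miR-7a-5p fell, to 124 ± 56.7 and 977 ± 38.5 CPM (SD, n = 3). In Exe 1 of 4, miR-92b-3p, passed between stages, beside 25.3%.

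Between genotypes in E7.5 Epi, 12 of the 18 could be tested. In Dnmt1-KO 2 of 12 passed, beside 25.0% of all miRNAs, and in Dnmt3a/3b-DKO 3 of 12, beside 17.8%. miR-92b-3p fell in both, to 15701 ± 1861 CPM in Dnmt3a/3b-DKO and to 14728 ± 3326 CPM in Dnmt1-KO (SD, n = 4). miR-129-2-3p rose in Dnmt1-KO, to 44.8 ± 22.0 CPM (SD, n = 4) from 8.22 ± 9.41 CPM (SD, n = 3), and miR-128-3p and miR-129-5p rose in Dnmt3a/3b-DKO, to 245 ± 59.9 and 54.2 ± 26.4 CPM (SD, n = 4). Between Dnmt1-KO and Dnmt3a/3b-DKO 1 of 12 passed, miR-128-3p, beside 16.6%, and it was lower in Dnmt1-KO, as was mmu-miR-9-5p. In Dnmt-null against control 3 of 12 passed, beside 40.5%, with miR-129-2-3p and miR-129-5p higher and miR-92b-3p lower, at 8633 ± 1151 CPM (SD, n = 3). In E6.5 Epi 1 of 6 passed in Dnmt3a/3b-DKO and 1 of 5 in Dnmt-null, beside 14.9% and 25.9%. Both were miR-92b-3p, at 7589 ± 1770 and 8022 ± 4627 CPM against 2885 ± 609 CPM in controls (SD, n = 4), and 0 of 6 passed in Dnmt1-KO. In E6.5 Exe 0 of 3 and in E7.5 Exe 0 of 7 or 8 passed with edgeR in any genotype. In E7.5 Exe miR-129-1-3p and miR-129-2-3p had no count in controls and in Dnmt3a/3b-DKO. They averaged 16.03 ± 23.2 and 30.2 ± 26.2 CPM in Dnmt1-KO (SD, n = 4). In Dnmt-null they averaged 22.5 ± 20.2 and 68.6 ± 50.6 CPM (SD, n = 4). These levels are given without a test. The counts of miR-129-2-3p equalled those of the opposite-strand miR-129b-5p in 75 of 88 libraries. In the differences between tissues, 0 of 5 passed for Dnmt1-KO, 1 of 3 for Dnmt3a/3b-DKO and 2 of 5 for Dnmt-null at E6.5, and 1 of 6 for Dnmt1-KO and 0 of 8 for Dnmt3a/3b-DKO at E7.5, beside 11.4%, 18.1%, 18.1%, 10.6% and 9.27% of all miRNAs.

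In SC embryos mmu-miR-124-3p was the member that passed. At E7.5 it was at 138, 203 and 72.9 CPM in Mir-6KO;Dnmt-null embryos and at 19.3, 16.9 and 41.6 CPM in control SC embryos, with no overlap. The log2 fold change was 2.17 with a standard error of 0.67 (adjusted p = 0.186, edgeR), where 10.8% of 585 miRNAs passed. Without Mir-6KO;Dnmt-null replicate 2 it was 1.69 and the call was lost (adjusted p = 0.464, edgeR). At E6.5 the Dnmt-null SC embryos had 64.9, 185 and 104 CPM and the WT SC embryos 53.2, 42.1 and 0 CPM, also without overlap. That log2 fold change was 1.62 (SE 0.75, adjusted p = 0.279, edgeR) and did not pass, where 18.9% did. The library at 0 was replicate 3, whose epiblast markers stood apart, and without it the value was 1.09 with a smaller error and passed (SE 0.43, adjusted p = 0.135, edgeR). Without WT replicate 1 the value was 2.08 and also passed. The marker lists differed between these groups too. At E7.5 the epiblast markers summed to 77546 to 170777 CPM in Mir-6KO;Dnmt-null and 178106 to 220309 CPM in controls, and the endoderm markers to 3852 to 4588 and 1545 to 3538 CPM. There the trophoblast (3190 to 16332 and 4631 to 12646 CPM) and mesenchyme markers (65.6 to 242 and 51.0 to 178 CPM) overlapped, and the blood markers were at most 17.8 CPM. At E6.5 the endoderm markers summed to 3551 to 4734 CPM in Dnmt-null and 1828 to 2315 CPM in WT, the mesenchyme markers to 165 to 205 and 90.0 to 112 CPM, the epiblast markers to 82565 to 122808 and 21252 to 214514 CPM, and the trophoblast markers to 13221 to 42485 and 3055 to 13760 CPM, while the blood markers overlapped. The part of these cell types in the level of mmu-miR-124-3p was not tested.

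The other members did not pass in SC embryos. At E6.5 mmu-miR-9-5p was at 41.4, 28.7 and 7.74 CPM in WT and 26.0, 12.1 and 52.0 CPM in Dnmt-null, which overlapped. It averaged 32.1 ± 5.35 CPM in DKO (SD, n = 3), and 13.0% of miRNAs passed in DKO against WT. The DKO;Dnmt-null embryos, from the second table, had 84.9, 96.0 and 62.5 CPM, above the 34.4, 35.9 and 26.0 CPM of the DKO embryos, but the tables were counted apart and this was not tested. mmu-miR-219a-2-3p was low in SC embryos. At E6.5 it had at most 13 counts in any of the 12 libraries, and the 3 Dnmt-null libraries were at 0. At E7.5 the control SC embryos had 0, 127 and 0 counts, or at most 6.65 CPM, against 180 to 227 CPM in the dissected E7.5 Epi controls, although their totals were 13306003 counts or more. The labels call the SC samples embryos, and the study describes those of E6.5 as epiblast. The tissue of the E7.5 SC samples is not given in the sources used here, and their controls are not wild type. In the 6 SC E7.5 libraries each member was either at 0 or at 80 counts or more. mmu-miR-9-5p was at 0, 1437 and 1011 counts in the Mir-6KO;Dnmt-null embryos, and mmu-miR-219a-5p at 0, 176 and 0.

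The members were also counted in AG-haESCs. mmu-miR-124-3p was at 107, 108 and 107 CPM in WT and at 164, 70.8 and 180 CPM in O48. mmu-miR-9-5p was at 70.3, 50.1 and 72.6 CPM in WT and at 51.2, 16.4 and 29.4 CPM in O48, groups that overlapped slightly. mmu-miR-219a-2-3p was at 4.42, 5.18 and 1.05 CPM in WT and at 2.30, 30.6 and 1.5 CPM in O48. None of the 5 members passed between O48 and WT with edgeR, with 0 at an unadjusted p under 0.05 and 0 past the thresholds by DESeq2, where 20.7% of 773 miRNAs did. The 2 libraries labelled AG-haESC Mir-6KO differed from each other, with mmu-miR-219a-2-3p at 0 and 74.8 CPM and mmu-miR-9-5p at 10.2 and 0 CPM. Of the neural list, 2 of 5 passed as lower in SC E6.5 Dnmt-null (miR-488-3p and miR-92b-3p, beside 18.9%) and 1 of 5 in DKO (miR-92b-3p, beside 13.0%), 0 of 11 passed in SC E7.5 with edgeR (beside 10.8%), and 1 of 11 in O48 (miR-488-3p, higher, beside 20.7%).

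**Figure D4:**
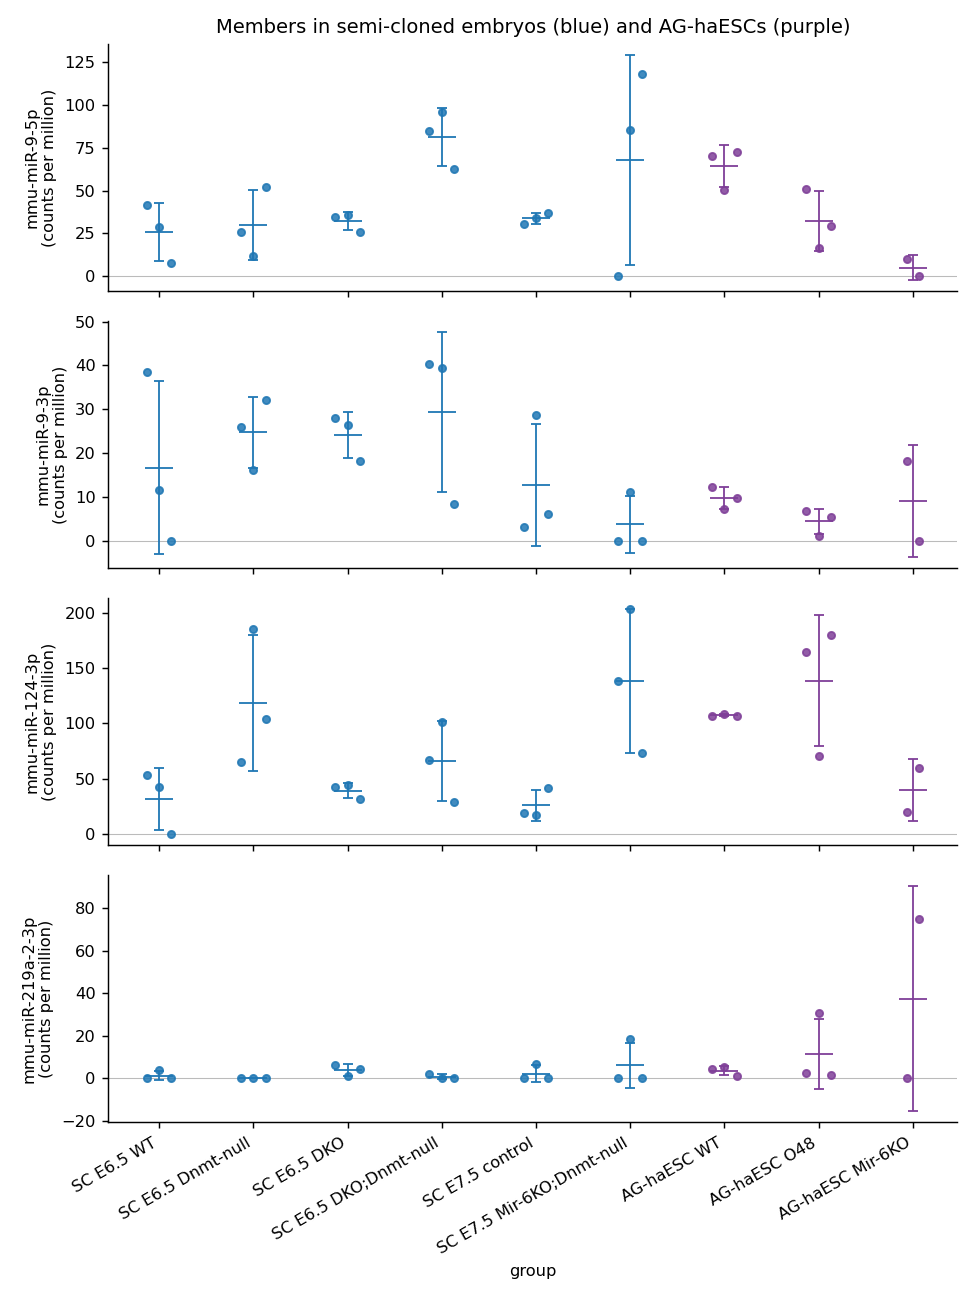
Levels of mmu-miR-9-5p, mmu-miR-9-3p, mmu-miR-124-3p and mmu-miR-219a-2-3p in CPM (vertical axes) in SC embryos (blue) and AG-haESCs (purple) by group (horizontal axis), with 1 point per library and bars for the mean ± SD. mmu-miR-124-3p lies between 72.9 and 203 CPM in SC E7.5 Mir-6KO;Dnmt-null and between 16.9 and 41.6 CPM in SC E7.5 control.

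The miRNAs most like each member over the 62 dissected libraries were found by Pearson's r of log2 CPM among the other 651 miRNAs that passed the E7.5 Epi filter. The libraries share tissue, stage and depth, so r is a description. For mmu-miR-9-5p, mmu-miR-9-3p, mmu-miR-219a-2-3p and mmu-miR-219a-5p the first was the opposite-strand partner, at r = 1. Next came miR-27b-3p (0.69) and miR-302a-5p (0.69) for mmu-miR-9-5p, and miR-302b-3p (0.72) and miR-302a-3p (0.71) for mmu-miR-9-3p. mmu-miR-124-3p was most like miR-302b-3p (0.79), miR-302d-3p (0.79) and miR-363-3p (0.79). The next for mmu-miR-219a-2-3p were miR-199b-5p (0.72) and miR-92b-3p (0.71), and for mmu-miR-219a-5p miR-1188-5p (0.44) and miR-195a-5p (0.41). miRNAs of the miR-302 cluster were thus among the most alike for the miR-9 arms and mmu-miR-124-3p. By Spearman's rho they were so for mmu-miR-9-3p, mmu-miR-124-3p and mmu-miR-219a-2-3p, but not for mmu-miR-9-5p. For mmu-miR-219a-2-3p, miR-302c-5p was at 0.74 and miR-302b-3p at 0.73.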

How the data were processed

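Small RNA libraries were made by CAS-seq, with in vitro transcription and PCR, and no molecular identifiers are described. The authors trimmed reads (fastp 0.20.1), mapped them to the mouse genome GRCm38 (bowtie 1.2.1.1) and used miRBase 21 to name mature miRNAs. What they deposited is a raw count of reads for each of these miRNAs in each library. Samples were grouped by their labels. A second copy of the main table, with 90 columns of which 8 are named as no sample, was not used.

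CPM was computed here from the library totals. The test was edgeR 4.0.16 quasi-likelihood under R 4.3.3 (TMM, filterByExpr with a count minimum of 10), adjusted by Benjamini-Hochberg over all miRNAs tested. One fit held all genotypes of a stage and tissue. Separate fits held the control embryos, the SC embryos of a stage, the AG-haESCs and, for differences between tissues, the 62 dissected libraries. Each standard error was derived from the fold change and its F value. A member was tested only where each group held more than 3 counts and the contrast had not chosen it, and a miRNA of the neural list only where each group held more than 3 counts. The members, the marker lists and the neural list were chosen with earlier results of these data known. Named genes were the members, their related strands, miRNAs of the neural list past the thresholds, and the 3 most alike miRNAs of each member. Between replicates the lowest chi-square per degree of freedom over 115 pairs was 4.20, so none looked like copies. Alternatives were DESeq2 1.42.0, RLE normalization, other filters, only the groups compared, a replicate block, leaving out each library, and leaving out the opposite-strand copies, the last chosen after seeing the data.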

Additional observations from a re-analysis of the deposited data

Results flagged for a closer look

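Among the members' levels in groups of 4 libraries, 19 libraries lay far from the rest of their group out of 55 groups that were not all equal. A group with counts in only 1 library is always flagged by this rule. The rate of about 1 in 20 that chance gives for continuous values therefore does not apply, and the 19 are no sign of an excess. Of the 19, 7 rest on 3 counts or fewer. For mmu-miR-9-5p they were at 21.6 CPM in an E6.5 Exe control, 25.4 CPM in E6.5 Exe Dnmt1-KO, 9.31 CPM in E7.5 Exe Dnmt1-KO and, on the low side, 42.4 CPM in E7.5 Epi Dnmt3a/3b-DKO. For mmu-miR-9-3p they were at 7.19 CPM in an E6.5 Exe control, 6.33 CPM in E6.5 Exe Dnmt3a/3b-DKO, 13.3 CPM in E7.5 Exe Dnmt1-KO and 17.6 CPM in E7.5 Exe Dnmt-null. For mmu-miR-124-3p they were at 11.1 CPM in E6.5 Exe Dnmt1-KO, 25.3 CPM in E6.5 Exe Dnmt3a/3b-DKO and 190 CPM in E6.5 Epi Dnmt1-KO. mmu-miR-219a-2-3p was at 8.12 CPM in 1 E6.5 Epi Dnmt-null library. mmu-miR-219a-5p was at 15.1 CPM in E6.5 Exe Dnmt-null, 20.8 CPM in E6.5 Epi Dnmt1-KO, 16.2 CPM in E6.5 Epi Dnmt-null, 9.82 CPM in E7.5 Exe Dnmt3a/3b-DKO, 18.8 CPM in E7.5 Exe Dnmt-null, 12.1 CPM in E7.5 Epi Dnmt1-KO and 5.41 CPM in E7.5 Epi Dnmt3a/3b-DKO.

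The 3 AG-haESC libraries of the line put in no group, which the comparisons did not use, held members above the limit that a count of 0 allows. The median was 92.4 CPM for mmu-miR-9-5p, 19.3 CPM for mmu-miR-9-3p, 169 CPM for mmu-miR-124-3p and 2.91 CPM for mmu-miR-219a-2-3p.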

How the results depend on the processing

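The log2 fold change of mmu-miR-9-5p in E7.5 Epi Dnmt1-KO against Dnmt3a/3b-DKO kept its sign in every alternative, but lost its call with no filter on low counts (-1.18) and with a mean of at least 10 counts (-1.11), which left 0 members past the thresholds. It lay between -1.72 and -1.05 when 1 library was left out, with 0 to 1 members past. That of mmu-miR-9-5p in E7.5 Epi against Exe controls lost its call when only those groups were fitted (2.89), with 0 members past, and lay between 2.61 and 5.02 without 1 library, with 0 to 2 members past. With no filter, 2 members passed there and 1 at E6.5. That of mmu-miR-124-3p in SC E7.5 lay between 1.69 and 2.79 without 1 library, with 1 to 2 members past (2 without Mir-6KO;Dnmt-null replicate 1). In SC E6.5 Dnmt-null against WT, 1 member passed with DESeq2 and with no filter, and 0 to 1 without 1 library. Leaving out 1 library gave 0 to 1 members past in E7.5 Exe Dnmt1-KO (1 without its replicate 4), in E7.5 Epi Dnmt1-KO and Dnmt3a/3b-DKO against control (1 without control replicate 3), in O48 against WT AG-haESCs (1 without WT replicate 3) and in the E6.5 Dnmt1-KO difference between tissues (1 without Exe Dnmt1-KO replicate 1), and 0 to 2 in that at E7.5 (2 without Exe Dnmt1-KO replicate 4). Values near 0 turned: mmu-miR-124-3p in Dnmt1-KO against Dnmt3a/3b-DKO was 0.0086 with a mean of at least 10 counts and -0.34 to 0.15 without 1 library, mmu-miR-9-3p in Dnmt1-KO against control -0.98 to 0.20, mmu-miR-124-3p between stages -0.37 to 0.70 in Epi and -0.21 to 2.04 in Exe, and mmu-miR-9-5p between stages in Epi -0.47 to 0.14. The cause was not tested.

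Replicate numbers shared between groups were not taken to pair the samples. The labels give them no meaning, and in E7.5 Epi the correlations of same-numbered libraries ran from -0.14 to 0.09, and in E6.5 Epi from -0.13 to 0.54. In SC E6.5 they ran from -0.26 to 0.42, with a median of 0.17 against -0.09 for libraries of other numbers. With the replicate block, mmu-miR-9-5p between stages in Epi was 0.081, and its log2 values in the other called comparisons were -1.41 and 4.17. The block changed no call among the members. RLE normalization moved the median of all miRNAs in O48 against WT AG-haESCs from -0.28 to 0.09, and in E7.5 Epi Dnmt1-KO against Dnmt3a/3b-DKO from -0.21 to -0.08. Leaving out 19 opposite-strand copies, 0.0539% to 0.323% of the counts, changed no call among the members. The partner of mmu-miR-219a-2-3p, mmu-miR-219b-5p, was not among these copies. With Spearman's rho, 0 to 3 of the 3 most alike miRNAs were the same. Fitting only the groups compared gives nothing new for SC E7.5, which has 2 groups. Low counts limit what can be seen, since in E6.5 Exe none of the members passed the filter.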
